A study of Rattus norvegicus with 2 samples.

Results

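The genes described here are 9 genes of thyroid hormone action in rat oligodendrocyte precursors (OPCs), glial cells from which the myelin-forming oligodendrocytes arise: the deiodinases Dio2 and Dio3, the transporter Slco1c1, the receptors Thra and Thrb, the retinoid X receptors Rxra and Rxrg, and the hormone-responsive genes Klf9 and Hr. They were taken by symbol, and all 9 were found among the 17455 genes of the deposited expression table. They were selected on the TPM values of this same pair of libraries, around the low value of Dio2 in Slit1, so their differences are given as a description, with no test. The study compared rat OPCs transfected with Slit1, 1 library, with rat OPCs transfected with vector, 1 library (labelled control); both are of wild-type genotype and were transfected with a Lonza kit. Slit1 is a secreted ligand of the Robo receptors. The sources used here do not give the rat strain or age, the time from transfection to harvest, or the hormone content of the medium.

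Thyroid hormone circulates mainly as the prohormone thyroxine (T4), which cells take up through transporters and convert to the active hormone triiodothyronine (T3) with type 2 deiodinase, encoded by Dio2. Type 3 deiodinase, encoded by Dio3, inactivates both forms. T3 binds the nuclear receptors encoded by Thra and Thrb, which sit on DNA as heterodimers with retinoid X receptors, and it is a classical signal for OPCs to leave the cell cycle and differentiate. In the rodent brain Dio2 is known mainly from astrocytes and tanycytes, from which T3 reaches neighbouring cells.

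The libraries held 18998770 estimated counts in Slit1 and 18817462 in vector, and the 9 genes took 0.0605% of them in Slit1 and 0.0601% in vector. The overexpressed gene was at 229.7 TPM (transcript abundance per length, scaled to an equal total in each library) in Slit1, against 1.70 TPM in vector. Of the 9 genes, 8 had a mean of at least 1 TPM over both libraries, the level set for counting differences, and Rxrg did not. With 1 library per group no difference has a replicate check, and the intervals given are 95% counting intervals, which cover counting error in these libraries and not how cultures vary. Fewer cells of a type and less RNA per cell cannot be told apart in such bulk samples.

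At a limit of 1.5-fold on the scale of log2(TPM + 1), which understates the change of low genes, 2 of the 8 genes were higher in Slit1 (Thra and Hr), 3 were lower (Dio2, Slco1c1 and Klf9) and 3 lay between (Dio3, Rxra and Thrb). Of all 13175 genes whose mean reached 1 TPM, 3.72% were higher and 4.83% lower by that limit. Because the genes were selected with these differences known, nothing is read from their share. Of all genes past the limit, 43.5% were higher in TPM, a share that was 54.2% in deposited FPKM (fragments per kilobase, scaled by depth) and 54.3% with the median gene set to 0. Klf9 lay just past the limit and was inside it under every other scaling tried.

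**Figure D1:**
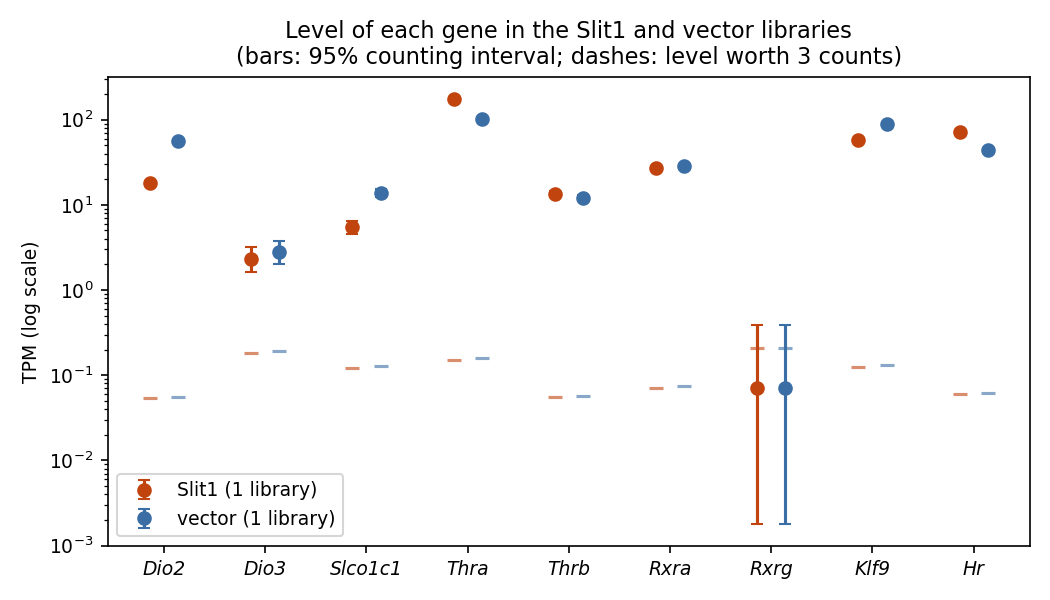
Level of each of the 9 genes in TPM on a log axis, in the Slit1 library (left point of each pair) and the vector library (right point), with 95% counting intervals as bars and the level worth 3 counts as dashes. Dio2, Slco1c1 and Klf9 sit lower in Slit1, Thra and Hr sit higher, and Rxrg lies under the level worth 3 counts in both libraries.

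The deiodinase that makes T3 was the member that differed most. Dio2 measured 17.95 TPM in Slit1 (1010 estimated counts), against 56.3 TPM in vector (3041 estimated counts). This was 3.13-fold lower in Slit1 (counting interval 2.92 to 3.37), a difference of -1.60 on the log2(TPM + 1) scale. Of the 13175 genes, 18 had a lower difference than Dio2. At a limit of 2-fold, which 1.24% of all genes passed upward and 0.645% downward, 0 members were higher and 2 were lower, Dio2 and Slco1c1, and at a limit of 3-fold, which 0.152% passed downward, Dio2 was.

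Dio3, the inactivating enzyme, was scarce. It measured 2.33 TPM in Slit1 (38 estimated counts), against 2.81 TPM in vector (43.99 estimated counts), and its ratio of 0.829 had a counting interval of 0.523 to 1.31 that held 1. No difference in Dio3 was therefore detectable at this depth. Dio1, the deiodinase of liver and kidney, had 6 estimated counts in Slit1 and 3 in vector (ratio 1.94, interval 0.415 to 11.996) and lay under the 1 TPM limit. Set beside each other as TPM levels, Dio2 exceeded Dio3 7.70-fold in Slit1 and 20.02-fold in vector.

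The log2 differences closest to that of Dio2, among genes with a symbol and a mean of at least 10 TPM, were those of Lrrc58, Ro60 and Sesn3, which lay 0.0095, 0.083 and 0.12 above it. Ro60 encodes an RNA-binding autoantigen and Sesn3 a sestrin. On the other side 1 such gene lay below Dio2, Cpne1, at 0.42 TPM in Slit1 (24.3 estimated counts) and 24.2 TPM in vector (688.3 estimated counts). The transcript length implied by its deposited counts and FPKM also differed, at 6393 bases in Slit1 and 3286 in vector. With 2 libraries the likeness of Lrrc58, Ro60 and Sesn3 to Dio2 rests on 1 difference per gene and says nothing of shared control.

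The 300-base promoter windows of RefSeq (250 bases before to 50 after an annotated start) are shown for Dio2, Klf9 and Thra, the 3 genes past the 1.5-fold limit that have an entry. The entries are for build GRCr8, whereas the submitters' processing notes name mRatBN7.2 for the expression table. The Dio2 window is chr6:115410545-115410844, minus strand. The Klf9 window is chr1:230126396-230126695, plus strand. For Thra the table gives more than 1 start, and the window of the upstream one is chr10:84197891-84198190, plus strand. Capitals mark matches on either strand to 1 of 3 motifs. In the Dio2 window the capitals are TATAAA, the letters of the TATA box motif, beginning 220 bases before the annotated start. In the Klf9 window they are TGACG, the half-site of a cAMP response element. In the Thra window they are GGGCGG, the GC box, or its reverse complement.
Dio2: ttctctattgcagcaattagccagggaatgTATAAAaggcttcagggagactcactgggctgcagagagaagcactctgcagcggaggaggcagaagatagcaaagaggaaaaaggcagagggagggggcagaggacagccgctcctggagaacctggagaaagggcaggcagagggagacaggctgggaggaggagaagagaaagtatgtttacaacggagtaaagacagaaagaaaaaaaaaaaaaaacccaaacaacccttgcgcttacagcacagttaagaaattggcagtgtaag
Klf9: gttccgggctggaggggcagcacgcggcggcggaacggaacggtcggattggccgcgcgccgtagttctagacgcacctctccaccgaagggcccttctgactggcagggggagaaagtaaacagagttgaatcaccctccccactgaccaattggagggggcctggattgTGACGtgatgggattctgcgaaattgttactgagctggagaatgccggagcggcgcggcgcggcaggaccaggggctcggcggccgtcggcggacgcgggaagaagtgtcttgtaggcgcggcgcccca
Thra: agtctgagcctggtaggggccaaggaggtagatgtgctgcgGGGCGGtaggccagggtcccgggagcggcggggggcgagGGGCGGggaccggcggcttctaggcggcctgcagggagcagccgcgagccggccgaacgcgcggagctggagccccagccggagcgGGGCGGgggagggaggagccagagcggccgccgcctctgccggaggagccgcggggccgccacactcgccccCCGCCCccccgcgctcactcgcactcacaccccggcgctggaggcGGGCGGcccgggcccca

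The windows differed in base composition: G and C made up 49.0% of the Dio2 window, 65.3% of the Klf9 window and 79.7% of the Thra window, beside a median of 51.7% over all 33469 windows. The Dio2 window held 1 TATAAA, beginning 220 bases before the annotated start, and 14.2% of all windows hold that motif. The Klf9 window held 1 TGACG, beginning 79 bases before the start, a motif present in 21.2% of all windows. The Thra window held 5 matches to GGGCGG, present in 33.1% of all windows. Both strands were searched, and overlapping matches were counted separately. The full cAMP response element, TGACGTCA, is present in 1.83% of all windows and had no match in these 3. The nuclear receptor half-site AGGTCA, present in 16.2% of all windows, had no match in them either, nor did its direct repeat with a spacer, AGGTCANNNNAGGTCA, present in 0.00598%. These matches describe letters in a window and say nothing of a factor's binding. Bases outside the windows were not searched, so a motif without a match may still lie farther upstream. In the Dio2 window TATAAA begins at base 31, so little sequence before it was covered. Entries matched 7 of the 9 genes, all but Slco1c1 and Hr. The same motifs also stood in windows of members inside the 1.5-fold limit, which are not shown. The Rxra window held 5 matches to GGGCGG. The Dio3 window held 4, with 1 TATAAA beginning 31 bases before the start. The Thrb window held 4, with 1 TGACG beginning 50 bases before the start. The motifs are therefore not particular to the genes past the limit.

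The transporter Slco1c1 (OATP1C1), which carries T4 into the brain and in rodents is known from the endothelium of the blood-brain barrier and from astrocytes, measured 5.44 TPM in Slit1 (133 estimated counts), against 13.8 TPM in vector (318.9 estimated counts). It was 2.53-fold lower in Slit1 (counting interval 2.06 to 3.12), with a difference of -1.20 on the log2(TPM + 1) scale, and 47 of all 13175 genes had a lower difference.

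The other transporters differed less. The amino acid transporter genes Slc7a5 (LAT1) and Slc7a8 (LAT2), whose products also carry iodothyronines, differed in opposite directions: Slc7a5 measured 125.5 TPM in Slit1 and 100.1 TPM in vector (ratio 1.25, interval 1.19 to 1.32), and Slc7a8 measured 91.95 TPM in Slit1 and 124.1 TPM in vector (1.35-fold lower in Slit1, interval 1.29 to 1.41). Slc3a2, which encodes the heavy chain that both need, was the most abundant of the list, at 401.6 TPM in Slit1 and 459.3 TPM in vector. Of the 4 listed transporter genes whose mean reached 1 TPM, 0 were higher by 1.5-fold and 1 was lower, which was Slco1c1. Among all genes 3.72% were higher and 4.83% lower. Their median log2 difference was -0.31, beside -0.05 over all genes. The count and the median include Slco1c1, which was selected with its value known, so nothing is read from them. The other 3 had log2 differences of -0.43 (Slc7a8), -0.19 (Slc3a2) and 0.32 (Slc7a5). Slc16a10, Slco1a4, Slco1a5 and Slc10a1 lay under 1 TPM, with at most 7 estimated counts in either library.

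Inside the cell, the T3-binding protein mu-crystallin, encoded by Crym, was abundant at 450.8 TPM in Slit1 and 390.4 TPM in vector (ratio 1.15, interval 1.11 to 1.21). The carrier genes Ttr (5 estimated counts in each library) and Alb (0 in Slit1 and 2 in vector) were close to absent.

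Of the hormone receptors, Thra was both the more abundant and the more different between the libraries. Thra encodes the hormone-binding receptor alpha1, the main thyroid hormone receptor of brain, and by alternative splicing a variant, alpha2, that does not bind T3; a table per gene does not separate them. Thra measured 172.9 TPM in Slit1 (3427 estimated counts), against 102.9 TPM in vector (1959 estimated counts). It was 1.68-fold higher in Slit1 (counting interval 1.59 to 1.78), with a log2(TPM + 1) difference of 0.74, and 292 genes had a higher difference. Thrb, the other receptor gene, measured 13.4 TPM in Slit1 (725.1 estimated counts), against 12.01 TPM in vector (636.7 estimated counts), a ratio of 1.12 whose counting interval, 1.001 to 1.24, began next to 1.

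Thra made up 92.8% of the summed TPM of both receptor genes in Slit1 and 89.5% in vector. The summed TPM of both was 186.3 in Slit1 and 114.9 in vector. Thra overlaps Nr1d1, which encodes the clock repressor REV-ERB alpha and is transcribed from the opposite strand, and also Med24, a Mediator subunit gene, and the sources used here do not say how strand was handled. Nr1d1 measured 71.6 TPM in Slit1 and 77.7 TPM in vector (ratio 0.923, interval 0.862 to 0.988). Med24 measured 49.1 TPM in Slit1 and 46.4 TPM in vector (ratio 1.06, interval 0.979 to 1.14). The summed estimated counts of Thra and Nr1d1 were 5073 in Slit1 and 3674 in vector, and the ratio of their summed TPM was 1.35 (interval 1.30 to 1.41). For Thra and Med24 the ratio of summed TPM was 1.49 (interval 1.42 to 1.55). Both ratios are below 1.5, and Thra is the larger part of either sum. The part of strand handling in the difference of Thra was not tested.

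The retinoid X receptors, the partners of Thra and Thrb on DNA, differed little. Rxra measured 26.9 TPM in Slit1 and 28.5 TPM in vector, and its ratio of 0.945 had an interval that held 1 (0.870 to 1.03). Rxrb, which was not among the 9 genes, was the most abundant of the family at 47.98 TPM in Slit1 and 42.8 TPM in vector (ratio 1.12, interval 1.03 to 1.23). Rxrb made up 64.0% of the summed TPM of the 3 genes in Slit1 and 59.99% in vector, and Rxra 35.9% in Slit1 and 39.9% in vector. Rxrg, known in the rat as a factor that promotes OPC differentiation during remyelination, had 1 estimated count in each library (0.07 TPM). The floor that a count of 0 allows, 3 counts, was worth 0.21 TPM at Rxrg in each library, so Rxrg was under the level this depth can resolve.

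Other nuclear receptors that pair with retinoid X receptors were listed as well. Among all genes 3.72% were higher and 4.83% lower by 1.5-fold, so nothing is read from counts in a list this small. Of 12 genes, 9 had a mean of at least 1 TPM, 0 of these differed by 1.5-fold in either direction, and their median log2 difference was -0.05, beside -0.05 over all genes. The largest differences were those of Nr1h3 (liver X receptor alpha), at 6.25 TPM in Slit1 and 8.52 TPM in vector (1.36-fold lower in Slit1, interval 1.04 to 1.80), and Nr4a2 (Nurr1), at 6.46 TPM in Slit1 and 8.56 TPM in vector (1.33-fold lower, interval 1.09 to 1.61). Nr1h2 and Nr4a1 had log2 differences of 0.17 and -0.12.

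Klf9 and Hr are 2 genes that T3 induces directly in the developing brain, and in these libraries they differed in opposite directions. Klf9, a zinc finger transcription factor, measured 57.8 TPM in Slit1 (1387 estimated counts), against 87.7 TPM in vector (2021 estimated counts). It was 1.52-fold lower in Slit1, with a counting interval of 1.42 to 1.63 that held 1.5. The log2 difference of -0.59 in TPM was -0.54 in FPKM, and it was -0.55 both in CPM (counts scaled by library total) and with the median gene set to 0, all inside the limit. Its paralogs Klf13 (17.9 TPM in Slit1 and 20.1 TPM in vector) and Klf16 (26.4 TPM in Slit1 and 25.3 TPM in vector) had log2 differences of -0.16 and 0.06.

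Hr encodes hairless, a corepressor that binds thyroid hormone receptors. It measured 72.6 TPM in Slit1 (3635 estimated counts), against 44.5 TPM in vector (2144 estimated counts), and was 1.63-fold higher in Slit1 (interval 1.54 to 1.72), with 336 genes showing a higher difference. Hr and Thra were thus the members that were higher, while Klf9 was lower together with Dio2 and Slco1c1.

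**Figure D2:**
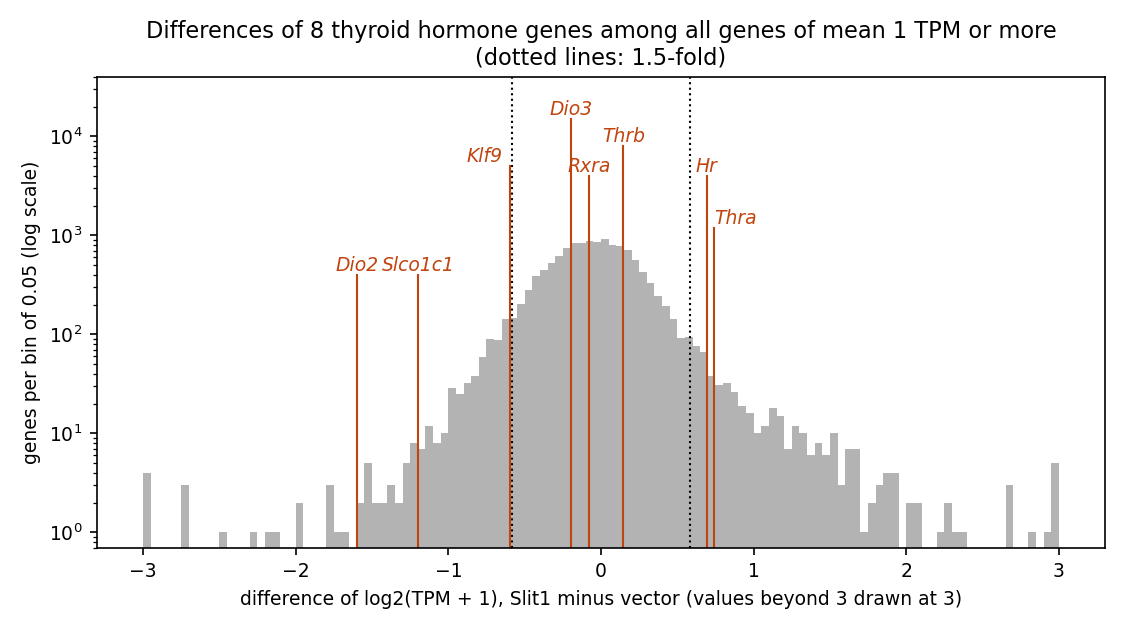
Histogram of Slit1 minus vector differences in log2(TPM + 1) for all 13175 genes whose mean reached 1 TPM, on a log count axis, with the 8 measured genes as vertical lines and the 1.5-fold limits dotted. Dio2 at -1.60 and Slco1c1 at -1.20 lie in the lower tail, Hr at 0.69 and Thra at 0.74 lie above the upper limit, and Klf9 at -0.59 lies just past the lower limit.

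The order of the 9 levels, as TPM, differed between the libraries. In Slit1 it ran from Thra through Hr, Klf9, Rxra, Dio2, Thrb, Slco1c1 and Dio3 to Rxrg, and no neighbours had overlapping counting intervals. In vector it ran from Thra through Klf9, Dio2, Hr, Rxra, Slco1c1, Thrb and Dio3 to Rxrg, and the intervals of the neighbours Slco1c1 (12.3 to 15.4 TPM) and Thrb (11.1 to 12.99 TPM) overlapped. Dio2 thus stood at place 5 in Slit1 and at place 3 in vector.

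The transcript length implied by the deposited counts and FPKM gives a check that does not use the size of a difference. Among the 8 genes it differed between Slit1 and vector most in Thrb, by -1.94% (6011 bases in Slit1 and 6130 in vector), followed by Slco1c1 with 1.34% and Rxra with 1.05%. For Dio2 the implied length was 6254 bases in Slit1 and 6251 in vector, and for Thra it was 2203 in Slit1 and 2202 in vector. In the authors' estimate the difference of Dio2 was therefore one of counts and not of the length they were divided by. Across 13159 genes the log2 difference and the implied length had a Spearman correlation of -0.20, given as a description over genes, which share both libraries; with this trend removed, an alternative chosen after seeing the data, the log2 difference of Dio2 was -1.44 and that of Hr 0.83.

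The proteins through which the receptors act were described as lists. Among all genes 3.72% were higher and 4.83% lower by 1.5-fold, so nothing is read from counts in lists this small. Among 6 genes listed with the corepressor complex, 1 was higher by 1.5-fold, 0 were lower and 5 lay between, with a median log2 difference of 0.02. The higher one was Hr, a corepressor gene that was selected with its value known. Gps2, a subunit of the complex, measured 50.2 TPM in Slit1 and 35.5 TPM in vector (ratio 1.41, interval 1.25 to 1.61). Tbl1xr1, another subunit gene, was 1.35-fold lower in Slit1 (34.3 TPM in Slit1 and 46.4 TPM in vector, interval 1.27 to 1.43), and the corepressor gene Ncor1 had a log2 difference of -0.23. Of 9 coactivator genes whose mean reached 1 TPM, 0 were higher and 1 was lower, with a median of -0.18. The lower gene was Ppargc1a, which encodes the coactivator PGC-1 alpha, at 5.53 TPM in Slit1 and 11.6 TPM in vector (2.10-fold lower, interval 1.84 to 2.40). The p160 coactivator genes Ncoa2 and Ncoa3 both had a log2 difference of -0.27, and the acetyltransferase gene Kat2b had -0.21.

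The enzyme encoded by Dio2 contains selenocysteine and is removed by ubiquitination, so genes of both processes were listed. Among all genes 3.72% were higher and 4.83% lower by 1.5-fold, so nothing is read from counts in lists this small. Of 6 selenoprotein synthesis genes, 0 differed by 1.5-fold and the median was 0.06. Sephs2, which makes the selenium donor, measured 69.3 TPM in Slit1 and 49.4 TPM in vector (ratio 1.40, interval 1.29 to 1.52), and the elongation factor gene Eefsec measured 21.1 TPM in Slit1 and 16.6 TPM in vector (ratio 1.27, interval 1.09 to 1.48). Trnau1ap and Sepsecs had log2 differences of 0.22 and -0.19. Of 6 genes of deiodinase 2 ubiquitination, 0 differed by 1.5-fold and the median was -0.13. Ube2j1, a ubiquitin-conjugating enzyme gene of the endoplasmic reticulum, came nearest at 55.9 TPM in Slit1 and 82.9 TPM in vector (1.48-fold lower, interval 1.39 to 1.58). The deubiquitinase genes Usp33 and Usp20 had log2 differences of -0.26 and 0.18, and the ligase gene Marchf6 had -0.23.

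Among selenoprotein genes as a family, a list added after the values of Dio2 were seen, 21 of the 23 found had a mean of at least 1 TPM. Of these, 0 were higher by 1.5-fold and 1 was lower, which was Dio2, beside 3.72% higher and 4.83% lower of all genes. Dio2 was selected with its value known, so nothing is read from this count. The median log2 difference was -0.03, and the other 20 genes ran from -0.36 in Txnrd1, a thioredoxin reductase gene, to 0.48 in Sephs2.

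Genes known to respond to thyroid hormone in brain went in both directions. Of 19 listed, 16 had a mean of at least 1 TPM, and 4 were higher by 1.5-fold and 2 lower, with a median of -0.04. Among all genes 3.72% were higher and 4.83% lower. The list holds the selected members Hr and Klf9, and Klf9 was inside the limit under every other scaling tried. Nothing is therefore read from these counts. The 3 largest differences of the list belonged to the myelin genes Mbp, Mag and Cnp, with log2 differences of 2.94, 2.82 and 1.40. The others past the limit were Hr, higher, and Klf9 and Thrsp, lower. Thrsp, named after its value was seen, encodes a lipogenic protein first known as a thyroid hormone response gene of liver, and it measured 10.6 TPM in Slit1 and 18.7 TPM in vector (1.76-fold lower, interval 1.39 to 2.25). Among those between were Dbp (log2 difference -0.19), Me1 (-0.44) and Nrgn (-0.53), also chosen after their values were seen.

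**Figure D3:**
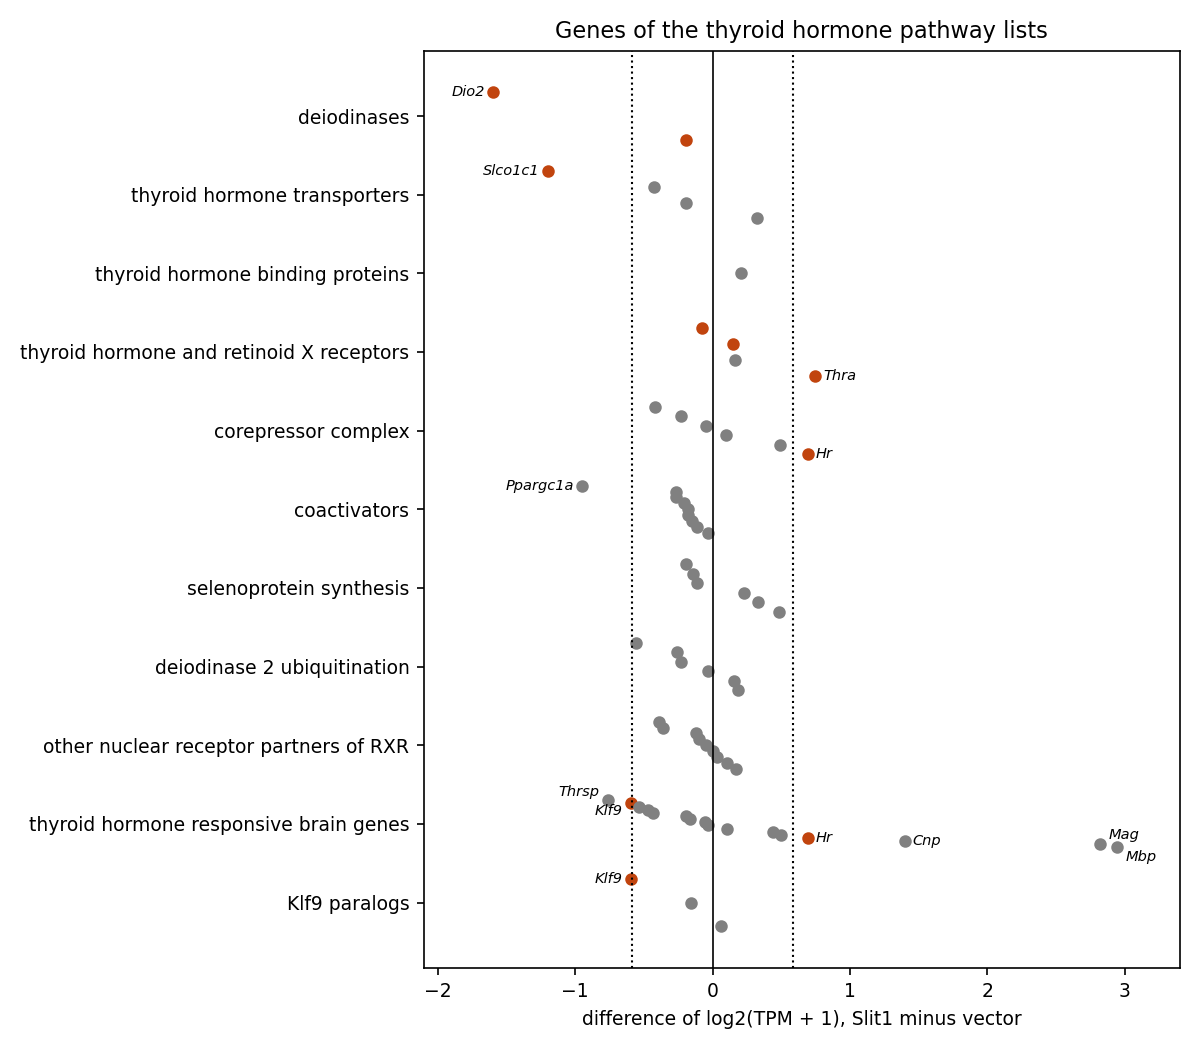
Slit1 minus vector differences in log2(TPM + 1) for each gene whose mean reached 1 TPM in 11 lists of thyroid hormone genes; the 9 genes described here are coloured, the others grey, genes past the dotted 1.5-fold limits are named, and some genes stand in more than 1 list. Dio2, Slco1c1, Ppargc1a, Thrsp and Klf9 lie to the left of the limits and Thra, Hr, Cnp, Mag and Mbp to the right.

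The labelled cell type was checked against markers, since Dio2 and Slco1c1 are known mainly from other cells. The OPC and lineage markers were all present, from 10.3 TPM (Cspg4) to 939.2 TPM (Bcas1) in Slit1 and from 10.1 TPM (Cspg4) to 913.6 TPM (Ptprz1) in vector, and Ptprz1 measured 688.2 TPM in Slit1. The median log2 difference of these 8 markers was 0.05. Pdgfra, Cspg4, Olig1 and Olig2 had TPM ratios, Slit1 over vector, of 1.03, 1.03, 0.940 and 1.04, and Ptprz1 had 0.753. By 1.5-fold 3 of the 8 were higher in Slit1 and 0 were lower, beside 3.72% higher and 4.83% lower of all genes. The higher ones were Sox10, a transcription factor of the oligodendrocyte lineage, at 218.0 TPM in Slit1 and 71.4 TPM in vector (3.05-fold, interval 2.90 to 3.22), Bcas1, at 939.2 TPM in Slit1 and 331.6 TPM in vector (2.83-fold, interval 2.76 to 2.91), and Gpr17, at 263.0 TPM in Slit1 and 109.8 TPM in vector (2.40-fold, interval 2.32 to 2.47). Bcas1 and Gpr17 are known from cells on the way from OPC to oligodendrocyte. The part of these lineage stages in the levels of the thyroid hormone genes was not tested. Astrocyte markers were also present at high levels: Gfap, the astrocyte intermediate filament gene, measured 6130 TPM in Slit1 and 4694 TPM in vector and ranked 7 among all genes in Slit1 and 9 in vector. The summed level of the 10 astrocyte markers was 10282 TPM in Slit1 and 9184 TPM in vector. Gfap was the largest part of that sum in both libraries, so the sum does not give the direction of the other markers. Of the 9 with a mean of at least 1 TPM, 5 had a log2 difference above 0 and 4 below, with a median of 0.04. By 1.5-fold 0 of these 9 were higher and 2 were lower, and Gjb6 had 1 estimated count in each library. The lower ones were the glutamate transporter gene Slc1a2, at 94.1 TPM in Slit1 and 215.4 TPM in vector (2.29-fold lower, interval 2.16 to 2.43), and the connexin gene Gja1, at 295.7 TPM in Slit1 and 506.2 TPM in vector (1.71-fold lower, interval 1.67 to 1.76). Aqp4 measured 462.5 TPM in Slit1 and 389.2 TPM in vector. The part of astrocytes in the lower levels of Dio2 and Slco1c1 was not tested.

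Of the endothelial markers, Pecam1, Cldn5 and Cdh5 had at most 9.99 estimated counts in either library (at most 0.34 TPM), and the summed level of the list, 75.2 TPM in Slit1 and 87.8 TPM in vector, was almost all Slc2a1, a glucose transporter gene of many cells. Only Slc2a1 and Flt1, a receptor gene for vascular endothelial growth factors, reached a mean of 1 TPM, and of these 2, 0 were higher by 1.5-fold and 1 was lower. Among all genes 3.72% were higher and 4.83% lower. Flt1 measured 2.25 TPM in Slit1 (128.2 estimated counts) and 4.51 TPM in vector (246.9 estimated counts), a ratio of 0.499 (interval 0.399 to 0.619). Kdr, another receptor gene of that family, was under this level at 0.80 TPM in Slit1 (42 estimated counts) and 0.24 TPM in vector (12 estimated counts), a ratio of 3.33 (interval 1.72 to 6.96). The part of endothelial cells in the lower level of Slco1c1 was not tested. The 5 microglial markers found summed to 1.42 TPM in Slit1 and 1.11 TPM in vector. Of the choroid plexus and ependymal markers, Foxj1, a factor of ciliated cells, stood at 119.9 TPM in Slit1 and 121.6 TPM in vector, while Ttr, Folr1 and Kl had at most 5 estimated counts. Neuronal markers summed to 77.3 TPM in Slit1 and 65.4 TPM in vector, and fibroblast and mural markers to 22.1 TPM in Slit1 and 23.2 TPM in vector, with 0 of either list past 1.5-fold.

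**Figure D4:**
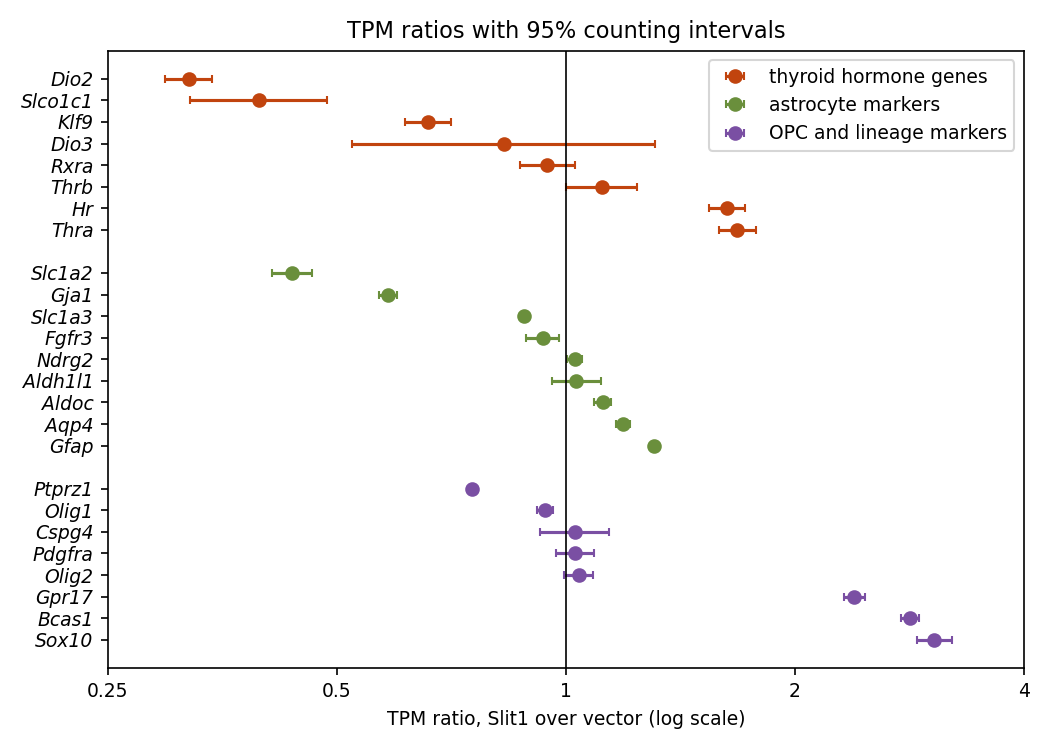
TPM ratio, Slit1 over vector, on a log axis, with 95% counting intervals, for the 8 measured thyroid hormone genes, 9 astrocyte markers and 8 OPC and lineage markers. Dio2 and Slco1c1 lie at 0.319 and 0.395. Of the astrocyte markers, Slc1a2 lies at 0.437 and Gja1 at 0.584, and the others run from 0.880 (Slc1a3) to 1.31 (Gfap). The OPC and lineage markers run from 0.753 (Ptprz1) to 3.05 (Sox10).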

How the data were processed

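RNA sequencing of 2 libraries, 1 of rat OPCs transfected with Slit1 and 1 of cells transfected with vector, was analysed from the authors' table. Per the file headers the deposited values are FPKM, TPM (scaled by the authors to 1000000 per library) and read counts. The deposited read counts are the authors' estimated counts, many of them fractional. Per the submitters' processing notes the build was mRatBN7.2; the sources used here do not give the aligner, counter, annotation, strand handling or filters. Columns of other samples numbered 0.

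Differences are Slit1 minus vector in log2(TPM + 1), for genes whose mean reached 1 TPM. No p-value was computed, since each group has 1 library. Ratios of TPM carry exact (Clopper-Pearson) 95% intervals for 2 Poisson counts, from estimated counts rounded to whole numbers; levels carry exact Poisson intervals. They cover counting error only. Symbols were checked against RefSeq for 98.6% of gene numbers. The calculation was tested on simulated data.

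The members and lists were chosen with earlier results of these data known. The text names all 9 members, detected genes of the deiodinase, transporter, carrier and receptor lists, up to 4 genes with the largest difference from each other list, genes overlapping a member, and up to 3 genes on either side of Dio2. Some genes that this rule takes in are not reported here and are left out of the lists. Alternatives were pseudocounts of 0.1 and 5, other floors and fold limits, FPKM, CPM, edgeR TMM factors (edgeR 4.0.16), median centring and, added after seeing the data, removal of the gene length trend and counting intervals wholly past the limit. Python 3.11.15, SciPy 1.17.1 and statsmodels 0.14.6 were used.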

Additional observations from a re-analysis of the deposited data

How the results depend on the processing

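The 8 measured members were recomputed under 7 alternatives each, and 55 of the 56 values kept their sign; the exception was Rxra, at 0.041 with the gene length trend removed. With that trend removed (chosen after seeing the data) Dio2 was -1.44, Hr 0.83 and Thrb 0.30. With a pseudocount of 5 TPM Dio2 was -1.42 and Slco1c1 -0.85. Klf9 was past 1.5-fold in TPM with a pseudocount of 0.1 or 1 and inside it with a pseudocount of 5, in FPKM, in CPM, with edgeR TMM factors, with the median gene set to 0, with the length trend removed, and by its counting interval. The cause was not tested. Of the members, 0 were higher at a fold limit of 2 or 3, and 1 was lower at 3. Over the pathway lists 5 genes were higher (Thra, Hr, Mbp, Mag and Cnp) and 5 lower (Dio2, Slco1c1, Klf9, Ppargc1a and Thrsp). At a limit of 2, 3 were higher (Mbp, Mag and Cnp) and 2 lower (Dio2 and Slco1c1). At 3, 2 were higher (Mbp and Mag) and 1 was lower (Dio2). The lists hold the selected members, so nothing is read from these counts beside the 3.72% higher and 4.83% lower of all genes at 1.5-fold. Over all genes 490 were higher and 637 lower; these were 258 and 277 with a pseudocount of 5, 164 and 85 at a limit of 2, 48 and 20 at a limit of 3, and 259 and 252 with the interval wholly past the limit, and 342 were lower in FPKM. In estimated counts, not per length, Thra made up 82.5% of both receptor genes in Slit1 and 75.5% in vector, Rxra 51.5% of its family in Slit1 and 55.3% in vector, and Rxrb 48.5% in Slit1 and 44.7% in vector. Of the counts in single lists, 15 were 0 in each setting run, and over the other 9, 24 of 99 alternative values moved by more than 1.5 times. Depth limits Dio3, Dio1 and Rxrg. No replicate could be left out, and no paired analysis was possible because each group has 1 library.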
